A study of Mus musculus with 3 samples.

Results

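The genes of 9 adhesion molecules were followed across 3 populations of myeloid cells, out of 22238 genes listed in all 3 libraries. They were given by name: Selplg, Icam1, Vcam1, Pecam1, F11r, Alcam, Ninj2, Cd47 and Sirpa. None of the 9 encodes a selectin. Selplg encodes the main selectin ligand of leukocytes, Ninj2 a small membrane protein outside the immunoglobulin superfamily, and the other 7 encode immunoglobulin-type surface proteins. RNA was sequenced from cells of female C57BL/6J mice aged 10 to 12 weeks with experimental autoimmune encephalomyelitis (EAE), a model of multiple sclerosis, at days 14 to 15 after a myelin oligodendrocyte glycoprotein peptide in complete Freund's adjuvant and injections of 250 ng pertussis toxin. All 3 populations came from such immunized mice, labeled WT (wild type) in the sample titles, so there was no healthy control. Monocytes of the bone marrow (BM-Mono) were pooled from 13 mice in 2 experiments and sorted as CD45+ and CD11b+ cells that were Ly6Chi, Ly6G- and CD11c-. Monocytes of the spinal cord (SC-Mono) and the antigen-presenting cells derived from them (APCs) were each pooled from 18 mice in 3 experiments. Both were sorted as CD45+, CD11b+ and CD64+ cells without Ly6G, the SC-Mono as Ly6Chi and the APCs as Ly6Clow/-. Each population was 1 library, so no difference has a replicate check, no test of the populations was possible and every interval covers counting error only. The APC library's source label names bone marrow, whereas its title, its tissue label and the design text name spinal cord, which was followed here. Spinal cords were digested with collagenase D before the sort and bone marrow was not, so that handling and tissue cannot be told apart.

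Leukocytes leave the blood in steps. Selectins bind sugars on PSGL-1, the product of Selplg, and slow the cell to a roll; integrins such as LFA-1, Mac-1 and VLA-4 then hold it to ICAM-1 and VCAM-1; and PECAM-1, the junctional adhesion molecules and ALCAM serve its passage between or through endothelial cells, including those of the blood-brain barrier. CD47 binds SIRP alpha on myeloid cells and restrains engulfment. Several of these molecules stand on the leukocyte as well as on the vessel, and ICAM-1 on an antigen-presenting cell also binds LFA-1 on a T cell.

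Levels are given as TPM, a share of transcripts corrected for length, rescaled to the same sum over the 22238 genes, which held 84.9% of the deposited TPM of BM-Mono, 85.3% of that of SC-Mono, and nearly the whole of that of APCs. The reads summed to 33280643, 27283795 and 28209589 in the same order. Ratios between libraries are log2 ratios of reads with a 98% interval. To be called higher or lower, a gene needed an interval wholly past 2-fold and over 3 TPM in at least 1 of the 2 libraries, after the definition of differential expression that the study took from GFold.

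The sequence just before the start of transcription is shown for a gene that rose strongly and carries known kinds of promoter motif (Icam1), for another that rose (F11r) and for the gene without a read (Ninj2). The windows are those of RefSeq on GRCm38.p6, held for 5 of the 9 genes, and are printed 5′ to 3′ without bases past the start of the gene in the annotation. The Icam1 window ends short of that start, which is 21015985 in the annotation. Capitals mark the motifs searched for, GGAAATTCC, a form of the site bound by NF-kB, and TTCCNGGAA, a form of the site bound by STAT factors, on both strands. TATAAA was searched for on the gene's strand. The motifs were chosen with the Icam1 sequence in view. The windows are chr9:21015690-21015939 for Icam1, chr1:171437311-171437534 for F11r and chr6:120093130-120093349 for Ninj2, each on the plus strand.
Icam1: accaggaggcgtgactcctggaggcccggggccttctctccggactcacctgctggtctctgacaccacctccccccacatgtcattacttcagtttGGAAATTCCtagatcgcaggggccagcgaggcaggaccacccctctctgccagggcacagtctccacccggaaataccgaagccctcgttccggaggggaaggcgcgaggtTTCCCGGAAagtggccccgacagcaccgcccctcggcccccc
F11r: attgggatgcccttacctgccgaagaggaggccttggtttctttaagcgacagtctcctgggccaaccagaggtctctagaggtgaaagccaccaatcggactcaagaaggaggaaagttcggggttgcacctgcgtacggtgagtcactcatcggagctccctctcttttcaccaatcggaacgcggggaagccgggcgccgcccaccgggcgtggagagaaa
Ninj2: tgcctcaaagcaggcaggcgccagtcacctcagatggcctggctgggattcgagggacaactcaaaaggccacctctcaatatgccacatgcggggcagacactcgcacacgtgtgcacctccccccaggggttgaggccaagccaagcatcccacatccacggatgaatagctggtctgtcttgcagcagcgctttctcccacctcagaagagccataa

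The Icam1 window held both the NF-kB-type motif, from base 98 to base 106, and the STAT-type motif, from base 209 to base 217. Counted from the RefSeq start, they begin at -153 and -42. Of the 32851 windows of 250 bases in the table, 0.286% held GGAAATTCC, 0.913% held TTCCNGGAA and 7.59% held TATAAA. F11r, Ninj2, Alcam and Cd47 had 0 matches to these letters in their windows. A match is a description of the sequence. GC content was 65.2% over the 250 bases of Icam1, 58.5% over the 224 bases of F11r and 58.6% over the 220 bases of Ninj2, and the windows held 15, 15 and 7 CG pairs.

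Between BM-Mono and SC-Mono, Icam1, Vcam1 and F11r were called higher and none of the 9 genes was called lower, although the intervals of Selplg, Alcam and Cd47 lay wholly below 0. The fold was 10.8 for Icam1, 20.0 for Vcam1 and 5.31 for F11r. Of the 8 genes over 3 TPM in a library, 3 were called higher, where 13.6% of the 10072 genes tested were called higher, and 0 were called lower, where 11.0% were. Vcam1 passed the TPM threshold through the spinal cord library alone, and Ninj2 did not pass it. The median log2 ratio of the 8 genes was 0.41, beside -0.17 over all genes tested. Between SC-Mono and APCs, 0 of the 8 genes were called in either direction, where 1.94% of the 9734 genes tested were called higher and 1.66% lower. Their median log2 ratio was 0.11, beside -0.03 over all. Between BM-Mono and APCs, which share a library with each of the other comparisons, the same 3 genes were called higher of 8, where 14.0% of 10190 genes were called higher and 11.7% lower. The median there was 0.28, beside -0.17 over all.

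**Figure D1:**
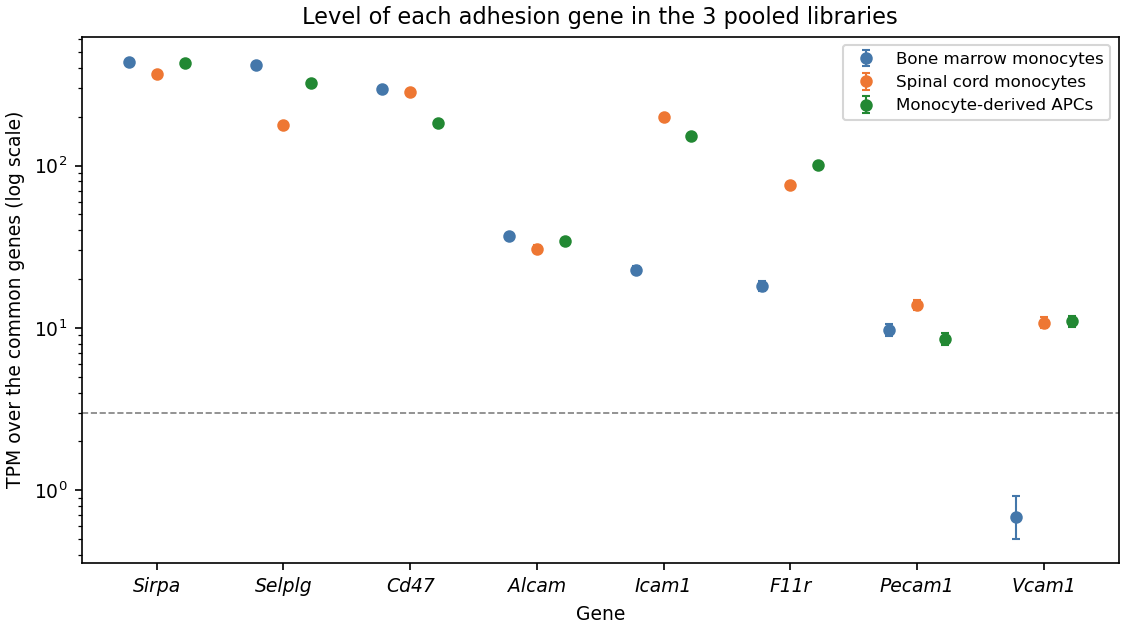
Level of each gene in TPM (log axis), 1 point for each pooled library (blue for BM-Mono, orange for SC-Mono, green for APCs), with bars for the 95% Wilson interval of the share of reads, and a dashed line at 3 TPM. Sirpa, Selplg and Cd47 sit high in every library, Icam1 and F11r lie clearly higher in both spinal cord libraries, Vcam1 crosses the line between bone marrow and spinal cord, and Ninj2, with 0 reads, is not drawn.

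The label of monocytes and their progeny was checked against 8 markers, Ly6c2, Ccr2, Fcgr1, Csf1r, Plac8, Ptprc, Itgam and Cd44, which were all over 3 TPM in each library and summed to 11135, 9631 and 3948 TPM in BM-Mono, SC-Mono and APCs. Ly6c2, Ptprc and Itgam stand for markers of each sort, and Fcgr1, which encodes CD64, for a marker of the spinal cord sorts alone. Their levels were thus fixed in part by the gates. Most marker lists of other cells are given beside the genes they touch. Those not given there are oligodendrocytes (30.1, 35.4 and 35.3 TPM), conventional dendritic cells (40.8, 21.3 and 28.3) and B cells (9.05, 4.51 and 85.1, of which Ebf1 alone was 81.3 in APCs). Single genes carried the first 2 of these sums in BM-Mono. Without Cnp, which had 29.8, 22.7 and 21.7 TPM, the oligodendrocyte markers were near 0 in BM-Mono, and Mobp and Mag were called higher in both spinal cord libraries. Flt3, also a progenitor gene, had 37.8, 3.65 and 6.65 TPM, whereas Clec9a rose from 0.108 to 4.38 TPM, with 7.40 in APCs, and Batf3 from 2.74 to 11.7, with 6.34 in APCs. Zbtb46 and Itgae were called higher in APCs than in SC-Mono, at 3.37 against 0.496 TPM and 3.24 against 0.637. Both passed the TPM threshold through the APC library alone, and neither reached 4 TPM. Some other markers called higher, Mobp and Mag among them, likewise passed it only through libraries where they are high.

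The order of the levels changed between the tissues. In BM-Mono it ran from Sirpa (438 TPM) through Selplg (414), Cd47 (297), Alcam (36.6), Icam1 (22.7), F11r (18.1) and Pecam1 (9.66) to Vcam1 (0.681). In SC-Mono Icam1 stood ahead of Selplg, after Sirpa and Cd47, and F11r was ahead of Alcam. In APCs the order was Sirpa, Selplg, Cd47, Icam1, F11r, Alcam, Vcam1 and Pecam1. No neighbors in these orders had overlapping 95% counting intervals, although the spread between mice, which the libraries cannot show, may be wider than those intervals.

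Selplg (ENSMUSG00000048163.13, chromosome 5 of GRCm38 from 113818536 to 113832644, minus strand) encodes the ligand through which leukocytes roll on P-selectin and E-selectin. It had 13457 reads in BM-Mono, 5277 in SC-Mono and 10582 in APCs, or 414, 179 and 322 TPM. SC-Mono were thus the low library of the 3, and the other two lay closer together. The log2 ratio was -0.89 (98% interval -0.95 to -0.84) from BM-Mono to SC-Mono and 0.86 (0.80 to 0.91) from SC-Mono to APCs. Neither interval reached 2-fold, and neither difference was called. APCs stood at -0.02 (-0.06 to 0.02) against BM-Mono, but over the alternatives of processing this ratio ran from -0.36 to 0.16. As a ratio of TPM plus 1 in place of reads, the drop from BM-Mono to SC-Mono was -1.21, which is past 2-fold. Selplg is also transcribed in T cells, neutrophils and microglia, whose markers moved between the libraries. The 8 microglial markers summed to 13.8 TPM in BM-Mono, 157 in SC-Mono and 418 in APCs, and 8 of 8 were called higher in APCs than in SC-Mono, with Tmem119, which lies 18019 bases from Selplg, at 1.82, 26.0 and 66.4 TPM. The 9 T cell markers summed to 0.559, 56.0 and 88.5 TPM. The 8 neutrophil markers summed to 7006, 1091 and 1213 TPM, while Ly6g, the marker of the sort, stayed at 2.57, 1.71 and 1.64 TPM. S100a8 and S100a9 carried that sum. Ngp (186, 24.3 and 157 TPM) and Ltf (27.6, 9.76 and 34.1) were lowest in SC-Mono, as Selplg was, and Retnlg (1.77, 16.7 and 57.9) was called higher at each step. Cxcr2 was called higher in SC-Mono than in BM-Mono, at 9.10 against 2.56 TPM. The sort took cells without Ly6G, and in the spinal cord cells with high CD45, a gate meant to leave out microglia. The paper could not exclude that the APC population held a few microglia, and it estimated their share from Tmem119 as small. The part of T cells, neutrophils and microglia in the Selplg values was not tested. In pooled bulk RNA, fewer cells of a type and less RNA per cell cannot be told apart.

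PSGL-1 binds selectins only once it carries the right sugars and sulphates, and several genes for these were called where Selplg was not. Of the 16 enzymes and transporters of the list, 14 were over 3 TPM in a monocyte library, and from BM-Mono to SC-Mono 2 were called higher and 4 lower, beside 13.6% and 11.0% of all genes tested. The median log2 ratio was -0.36, beside -0.17 over all. Fut7, the fucosyltransferase that completes sialyl Lewis x, fell from 244 reads to 24, with 42 in APCs, or 9.42, 1.15 and 1.45 TPM. Fut4, its relative, fell from 11.4 to 3.36 TPM and stood at 1.71 in APCs. C1galt1c1, the chaperone of the enzyme that starts core 1 O-glycans, fell from 289 to 33.9 TPM, with a log2 ratio of -2.79 (98% interval -2.92 to -2.67). Slc35c1, the transporter of GDP-fucose, fell from 107 to 25.6 TPM. In the other direction, St3gal6, a sialyltransferase over 3 TPM in the spinal cord libraries alone, rose from 0.291 to 7.17 TPM, with 14.5 in APCs, and Tpst1, which sulphates tyrosines of PSGL-1, rose from 13.1 to 28.3 TPM. Gcnt1, which branches the O-glycan, had 35.4, 27.7 and 23.0 TPM and was not called. Between SC-Mono and APCs, 0 of 13 were called, where 1.94% of all genes tested were called higher and 1.66% lower. Markers of granulocyte and monocyte progenitors summed to 671, 80.3 and 72.2 TPM over 7 genes, highest in BM-Mono, as Fut7, C1galt1c1 and Slc35c1 were. Of the 7, 5 were called lower in SC-Mono than in BM-Mono. Cd34 (3.03, 12.5 and 35.7 TPM) and Kit (0.208, 1.70 and 6.92 TPM) went the other way. The part of progenitors in these values was not tested.

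Other carriers of selectin ligands went both ways. From BM-Mono to SC-Mono, 3 of the 6 over 3 TPM were called higher and 1 lower, beside 13.6% and 11.0% of all genes tested. Spn, which encodes the mucin CD43, fell from 8315 reads to 622, with 1013 in APCs, or 118, 9.43 and 14.7 TPM. Cd24a rose from 97.3 to 223 TPM, with 195 in APCs. Cd34 rose from 3.03 to 12.5 TPM, with 35.7 in APCs. Podxl, a sialomucin of vessels and kidney podocytes, had 0 reads in BM-Mono, 544 in SC-Mono and 427 in APCs, and was at least 249-fold higher in SC-Mono than in BM-Mono against a floor of 3 reads per library. The endothelial markers Cldn5, with 0, 256 and 137 reads, and Slco1a4 were likewise without reads in BM-Mono and higher in SC-Mono than in APCs, and the part of endothelium, which makes Podxl and Cd34, in these values was not tested. Cd44, a hyaluronan receptor that can carry E-selectin ligands, was not called, at 374, 476 and 267 TPM.

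The selectins of endothelium, which bind PSGL-1 from the vessel side, both had their highest level in SC-Mono. Sele, the E-selectin of activated endothelium, rose from 19 to 172 reads, or from 0.335 to 3.37 TPM, and had 1.37 TPM in APCs. Selp, the P-selectin of platelets and endothelium, had 8.02 TPM in BM-Mono, 14.3 in SC-Mono and 3.75 in APCs and was called lower in APCs than in SC-Mono, with a log2 ratio of -1.70 (-1.95 to -1.46). Endothelial markers stood highest in the same library as Sele and Selp, as given with Icam1 and Vcam1. Platelet markers summed to 35.0, 7.81 and 14.8 TPM, and Gp1bb had 6, 0 and 0 reads. Ppbp fell from 21.6 to 0.192 TPM, with 0.115 in APCs. Pf4 did not follow it, at 7.73, 6.83 and 14.1 TPM, and made up most of the sum in both spinal cord libraries.

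**Figure D2:**
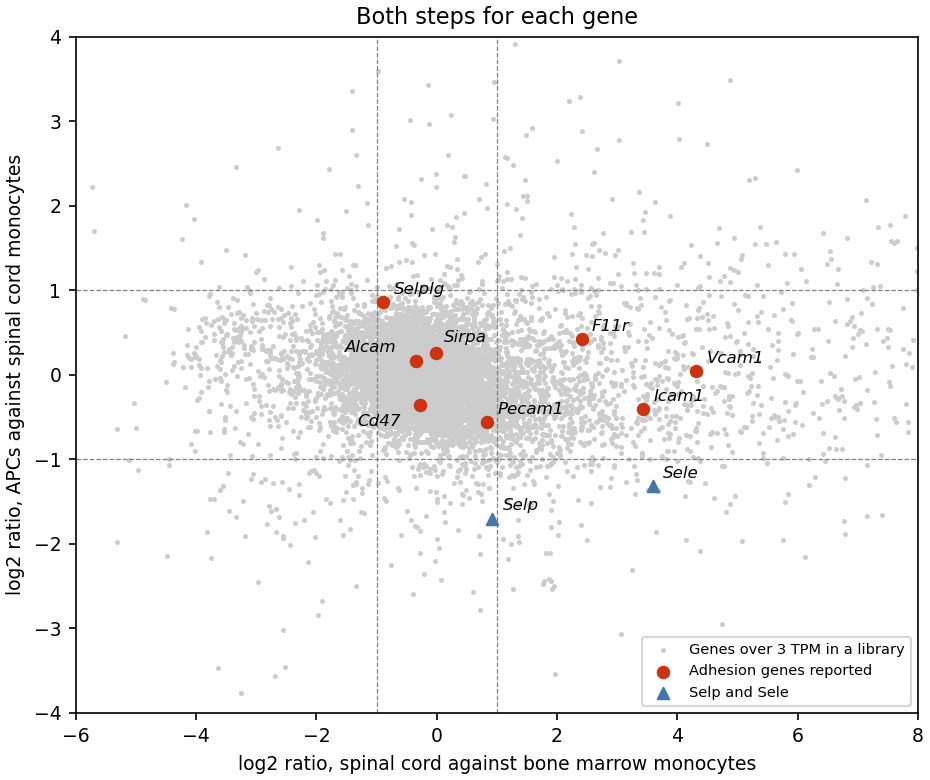
Log2 ratio of SC-Mono against BM-Mono (x axis) and of APCs against SC-Mono (y axis) for 10143 genes over 3 TPM in a library and with reads in all 3 (grey), the 8 adhesion genes with reads (red) and Selp and Sele (triangles), with dashed lines at a 2-fold change and 74 genes outside the axes. Icam1, Vcam1 and F11r lie far to the right and near 0 on the y axis, and Selplg lies left and up. The axes share the spinal cord monocyte library.

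Icam1 (ENSMUSG00000037405.8, chromosome 9 from 21015985 to 21028817, plus strand) encodes the ligand of the beta-2 integrins LFA-1 and Mac-1. It had 1099 reads in BM-Mono, 8633 in SC-Mono and 7216 in APCs, or 22.7, 198 and 151 TPM. Both spinal cord libraries were far above bone marrow. Icam1 rose by a log2 ratio of 3.43 (98% interval 3.33 to 3.54) in SC-Mono, with 3.04 (2.93 to 3.15) for APCs against BM-Mono. From SC-Mono to APCs the ratio was -0.41 (-0.46 to -0.35) and was not called. By level, Icam1 ranked 5202 of the 22238 genes in BM-Mono, 762 in SC-Mono and 829 in APCs. The antisense gene Gm47079 overlaps it and had 1 read in each monocyte library.

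Vcam1 (ENSMUSG00000027962.14, chromosome 3 from 116109949 to 116129688, minus strand) encodes the ligand of the integrin VLA-4 and is best known from activated endothelium, though macrophages also make it. It had 41, 604 and 690 reads in BM-Mono, SC-Mono and APCs, or 0.681, 10.8 and 11.0 TPM. BM-Mono were low and the spinal cord libraries lay together. The log2 ratio was 4.32 (98% interval 3.81 to 4.89) from BM-Mono to SC-Mono and 0.04 (-0.14 to 0.23) from there to APCs. The width of the first interval comes with the 41 reads of BM-Mono, and as a ratio of TPM plus 1 the rise was 2.81. For every transcript of Vcam1 the libraries held 33.4, 18.4 and 13.8 of Icam1. The antisense gene Gm43109 overlaps Vcam1 and had 0 reads in each monocyte library.

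Markers of endothelium, which makes both molecules, were also higher in the spinal cord libraries. The 12 markers summed to 76.6 TPM in BM-Mono, 162 in SC-Mono and 86.6 in APCs, of which 2, 6 and 4 were over 3 TPM. Cldn5, the claudin of the blood-brain barrier, had 0, 256 and 137 reads, or 0, 11.6 and 5.63 TPM, and Slco1a4 had 0, 10.3 and 4.46 TPM. In BM-Mono 5 of the 12, Cldn5 and Slco1a4 with Tek, Emcn and Ramp2, had 0 reads. Cdh5, which encodes VE-cadherin, had 0.386, 2.98 and 2.15 TPM. Ly6c1, a close paralog of the monocyte gene Ly6c2 with which it may share reads, made up 68.1, 76.2 and 35.4 TPM of these sums. Flt1 made up a further 7.06, 43.1 and 26.8 TPM. Vcam1 was near the level of Cldn5 in SC-Mono and above it in APCs, and Icam1 was above each of the 12 markers in both spinal cord libraries. Markers of pericytes and fibroblasts summed to 0.111, 9.28 and 6.40 TPM and those of astrocytes to 4.17, 18.5 and 19.6 TPM. The sort gated on CD45 and CD11b, and on CD64 in the spinal cord, and how far it removed these cells was not tested. Their part in the values of Icam1 and Vcam1 was not tested.

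Of 6 other ICAM-type and cell adhesion molecules, 3 were over 3 TPM, and all 3 were called lower in SC-Mono than in BM-Mono, beside 11.0% of all genes tested. Mcam, an adhesion molecule of endothelium and pericytes among the 6, had 8, 65 and 45 reads and a log2 ratio of 3.38 (98% interval 2.28 to 4.74), but it was not counted because it stayed under 3 TPM in each library. Icam2, a second LFA-1 ligand carried by resting leukocytes and vessels, fell from 555 reads to 162, with 109 in APCs, or 45.7, 14.4 and 10.4 TPM. Its log2 ratio was -1.31 (98% interval -1.62 to -1.02), close to the limit for a call. The ratio of Icam1 to Icam2 in TPM was 0.498, 13.8 and 14.5. L1cam fell from 17.0 to 2.53 TPM and Ncam1 from 3.38 to 0.376 TPM. Both passed the TPM threshold through the bone marrow library alone, where they were high.

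Receptors for the 9 molecules gave a mixed picture. Itgal, the alpha chain of LFA-1, had 164, 98.4 and 82.2 TPM and Itgam, the alpha chain of Mac-1 and part of each sort gate, had 485, 533 and 510.0 TPM. Neither was called between any 2 libraries. Itgb2, their shared beta chain, had 626, 919 and 1175 TPM and was called higher in APCs than in BM-Mono, but at neither single step. Itga4, the alpha chain of VLA-4 and so the receptor side of Vcam1, fell from 24636 to 7454 reads, or from 123 to 43.0 TPM, with a log2 ratio of -1.27 (98% interval -1.31 to -1.22), and stood at 34.7 TPM in APCs. Itgb1, its beta chain, was not called at 138, 154 and 190 TPM. Itgax rose from 0.247 to 48.9 and then 121 TPM, but it encodes CD11c, which was used to gate BM-Mono, so its first rise is no finding.

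F11r (ENSMUSG00000038235.4, chromosome 1 from 171437535 to 171464603, plus strand) encodes JAM-A, a junctional molecule of endothelium and epithelium that leukocytes and platelets carry as well. It had 833, 3219 and 4780 reads in BM-Mono, SC-Mono and APCs, or 18.1, 76.2 and 101 TPM. Each spinal cord library was above bone marrow, and APCs were highest. F11r rose by a log2 ratio of 2.41 (98% interval 2.28 to 2.54) in SC-Mono. From there to APCs the ratio was 0.42 (0.35 to 0.50), not called, and against BM-Mono APCs stood at 2.85 (2.72 to 2.97). When a coefficient of variation of 0.4 between libraries was assumed, the interval of the first ratio widened to 0.58 to 4.24 and the call was lost. The summed microglial and T cell markers given with Selplg had the same order of libraries as F11r, whereas endothelial markers were at their highest in SC-Mono. The part of these cells in the F11r values was not tested.

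Pecam1 (ENSMUSG00000020717.19, chromosome 11 from 106654217 to 106750628, minus strand) encodes CD31, which binds itself across the leukocyte and the endothelial junction. It had 548, 711 and 535 reads, or 9.66, 13.8 and 8.52 TPM, in BM-Mono, SC-Mono and APCs. SC-Mono were the high library and the other two were close. The log2 ratios were 0.83 (98% interval 0.64 to 1.03) and -0.56 (-0.75 to -0.37), and neither was called. As a ratio of TPM plus 1, the first was 0.48. The summed endothelial markers followed the same order of libraries at the top, with SC-Mono highest, and their part in the Pecam1 values was not tested.

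Of 12 other molecules of junctions and transmigration, 6 were over 3 TPM in a monocyte library, and from BM-Mono to SC-Mono 5 of these were called higher and 0 lower, beside 13.6% and 11.0% of all genes tested. Nectin2 and Esam passed the TPM threshold through the spinal cord library alone. The sixth, Cd99l2, a relative of CD99, had 6.29, 3.74 and 3.18 TPM and a first log2 ratio of -0.98 (98% interval -1.30 to -0.67), not called. Pvr, the poliovirus receptor CD155, rose from 7.97 to 62.7 TPM, with 30.9 in APCs. Nectin2 rose from 0.856 to 6.32 TPM, with 10.8 in APCs. Bsg, which encodes basigin, rose from 221 to 389 TPM, with 428 in APCs. Esam, itself one of the endothelial markers, rose from 10 to 106 reads, or from 0.291 to 3.72 TPM. Jam2, a relative of F11r, had 7, 130 and 175 reads and stayed under 3 TPM in both monocyte libraries, so it was not counted there. Between SC-Mono and APCs, 0 of 8 were called, where 1.94% of all genes tested were called higher and 1.66% lower.

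Ninj2 (ENSMUSG00000041377.12, chromosome 6 from 120093350 to 120200339, plus strand) encodes ninjurin 2, a homophilic adhesion protein described in nerve and glia. It had 0 reads in each of the 3 libraries. At this depth a count of 0 allows up to 3 reads, which is 0.242 TPM in BM-Mono, 0.275 in SC-Mono and 0.244 in APCs. Its relative Ninj1, which encodes an adhesion protein of macrophages that also ruptures the membrane of dying cells, was abundant. Ninj1 had 1654, 4649 and 3613 reads, or 84.6, 275 and 192 TPM, and rose from BM-Mono to SC-Mono with a log2 ratio of 1.95 (98% interval 1.85 to 2.05). From there to APCs its ratio was -0.51 and was not called.

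Alcam (ENSMUSG00000022636.13, chromosome 16 from 52248996 to 52454074, minus strand) encodes CD166, a molecule of the blood-brain barrier and of antigen-presenting cells that binds CD6 on T cells. It had 2187, 1255 and 1561 reads in BM-Mono, SC-Mono and APCs, or 36.6, 30.6 and 34.3 TPM. The 3 libraries lay close together. The log2 ratios were -0.34 (98% interval -0.46 to -0.22) and 0.17 (0.04 to 0.29), and neither was called. The first depends on how length is handled. The effective length of Alcam, the mean over the transcripts that reads were assigned to, was 2797 bases in BM-Mono, 2120 in SC-Mono and 2185 in APCs. With reads divided by it, the first ratio was -0.04. Cd6, its partner, had 0, 109 and 269 reads and moved with the other T cell markers.

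Cd47 (ENSMUSG00000055447.19, chromosome 16 from 49800533 to 49915010, plus strand) encodes the ubiquitous signal against engulfment, which also binds thrombospondin 1. It had 15054, 9022 and 7776 reads in BM-Mono, SC-Mono and APCs, or 297, 286 and 184 TPM. Both monocyte libraries were close by level, and APCs were lowest. In reads the log2 ratios were -0.28 (98% interval -0.32 to -0.23) and -0.36 (-0.41 to -0.31), and -0.63 (-0.67 to -0.58) for APCs against BM-Mono. None was called. The effective length of Cd47 was 2369 bases in BM-Mono, 1629 in SC-Mono and 2032 in APCs. The ratio of SC-Mono to BM-Mono in effective length was 0.688, where the median over 8666 genes was 0.962 and 3.32% of them had a ratio as low. For Alcam it was 0.758, and 6.75% had one as low. With reads divided by effective length, the Cd47 ratio turned to 0.16 from BM-Mono to SC-Mono and was -0.56 from there to APCs. From SC-Mono to APCs the ratio was 1.25 for Cd47 and 1.03 for Alcam, where the median was 1.05. A different set of transcripts lay behind the APC values, so comparisons with APCs, of effective length as of reads and TPM, may not be like for like. The deposited values per gene do not say which transcripts the reads were assigned to.

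Sirpa (ENSMUSG00000037902.18, chromosome 2 from 129592835 to 129632228, plus strand) encodes SIRP alpha, the myeloid receptor for CD47. It was the most abundant of the 9 in each library, with 26630, 19236 and 25538 reads, or 438, 368 and 430 TPM. The log2 ratios were -0.01 (98% interval -0.04 to 0.02) and 0.26 (0.23 to 0.29), and neither was called. The sign of the first turned with the scaling of the libraries, as listed in the closing section. The ratio of Cd47 to Sirpa in TPM was 0.680, 0.777 and 0.427. Sirpa has close paralogs, Sirpb1a, Sirpb1b and Sirpb1c, and reads could be split among them. Sirpb1c had 309, 351 and 273 TPM and Sirpb1a had 95.8, 104 and 50.0 TPM.

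The other genes around CD47 and SIRP alpha gave no calls. Of 12 relatives, phosphatases, adaptors and enzymes, 12 were over 3 TPM and 0 were called in any of the 3 comparisons. Of all genes tested, 13.6% were called higher and 11.0% lower from BM-Mono to SC-Mono. From there to APCs the shares were 1.94% and 1.66%, and for APCs against BM-Mono 14.0% and 11.7%. The median log2 ratio of the 12 was -0.09 from BM-Mono to SC-Mono and -0.17 from there to APCs. Ptpn6, which encodes the phosphatase SHP-1, had 483, 258 and 310 TPM. Qpctl, the enzyme that modifies CD47 for binding to SIRP alpha, had 11.0, 5.74 and 5.71 TPM. Thbs1, the thrombospondin ligand of CD47, was unlike them. It rose from 11779 to 158491 reads, or from 110 to 1491 TPM, and fell to 627 TPM in APCs, with log2 ratios of 4.21 (98% interval 4.18 to 4.24) and -1.26 (-1.28 to -1.25).

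**Figure D3:**
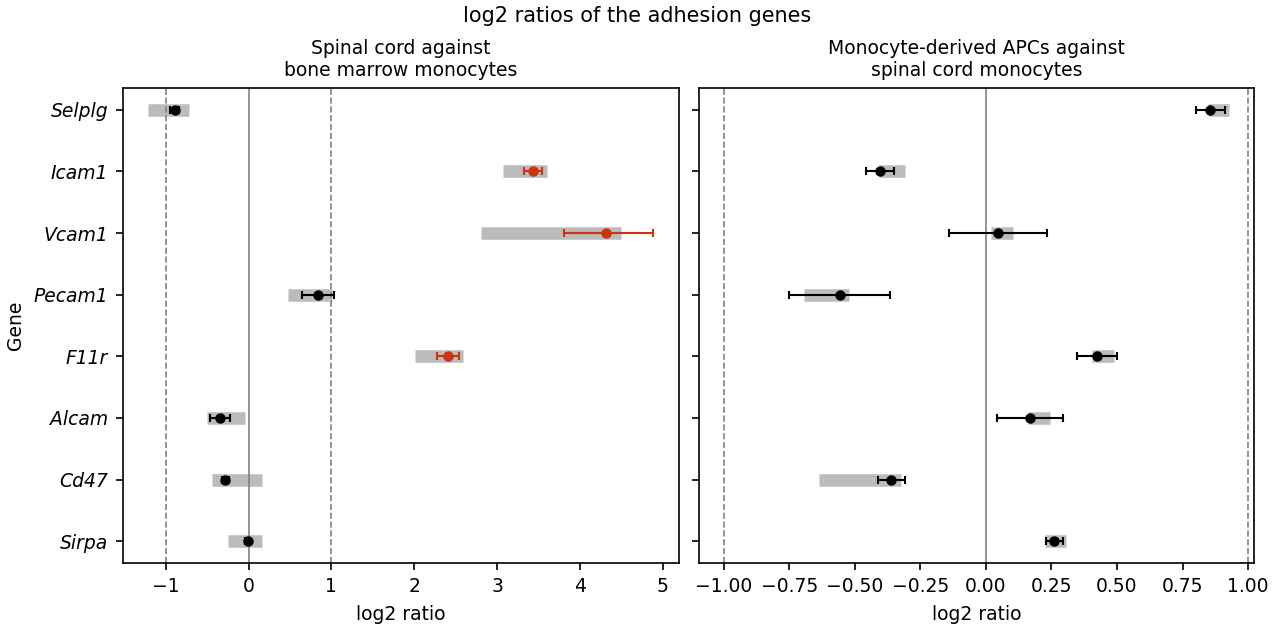
Log2 ratio of each of the 8 genes with reads, for SC-Mono against BM-Mono (left) and APCs against SC-Mono (right, a narrower axis). Points with bars give the ratio and its 98% counting interval, red where called higher, grey bands give the range over the alternatives of processing, and dashed lines mark 2-fold. Icam1, Vcam1 and F11r lie beyond 2-fold on the left, and every gene lies within it on the right.

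Proteases that shed adhesion molecules and linkers of their tails to actin were present throughout, with 9 of 9 over 3 TPM. From BM-Mono to SC-Mono 3 were called higher and 0 lower, beside 13.6% and 11.0% of all genes tested. Adam8, a protease able to cleave PSGL-1, rose from 553 to 6997 reads, or from 9.40 to 157 TPM, with 103 in APCs. Rhbdf2, which brings the sheddase ADAM17 to the surface, rose from 29.6 to 90.1 TPM, with 48.4 in APCs. Actn1, an actinin that anchors ICAM-1, rose at each step, from 3.50 to 14.1 and 39.5 TPM. Adam17 itself had 68.9, 99.7 and 89.0 TPM and Adam10 had 129, 102 and 103 TPM, and neither was called. Msn, which encodes moesin and ties PSGL-1 and ICAM-1 to actin, was not called at 741, 508 and 522 TPM. Rdx, which encodes its relative radixin, had 5724, 2083 and 2317 reads. The 98% interval of its first log2 ratio ran from -1.08 to -0.91, which is not wholly past 2-fold, so it was not called.

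**Figure D4:**
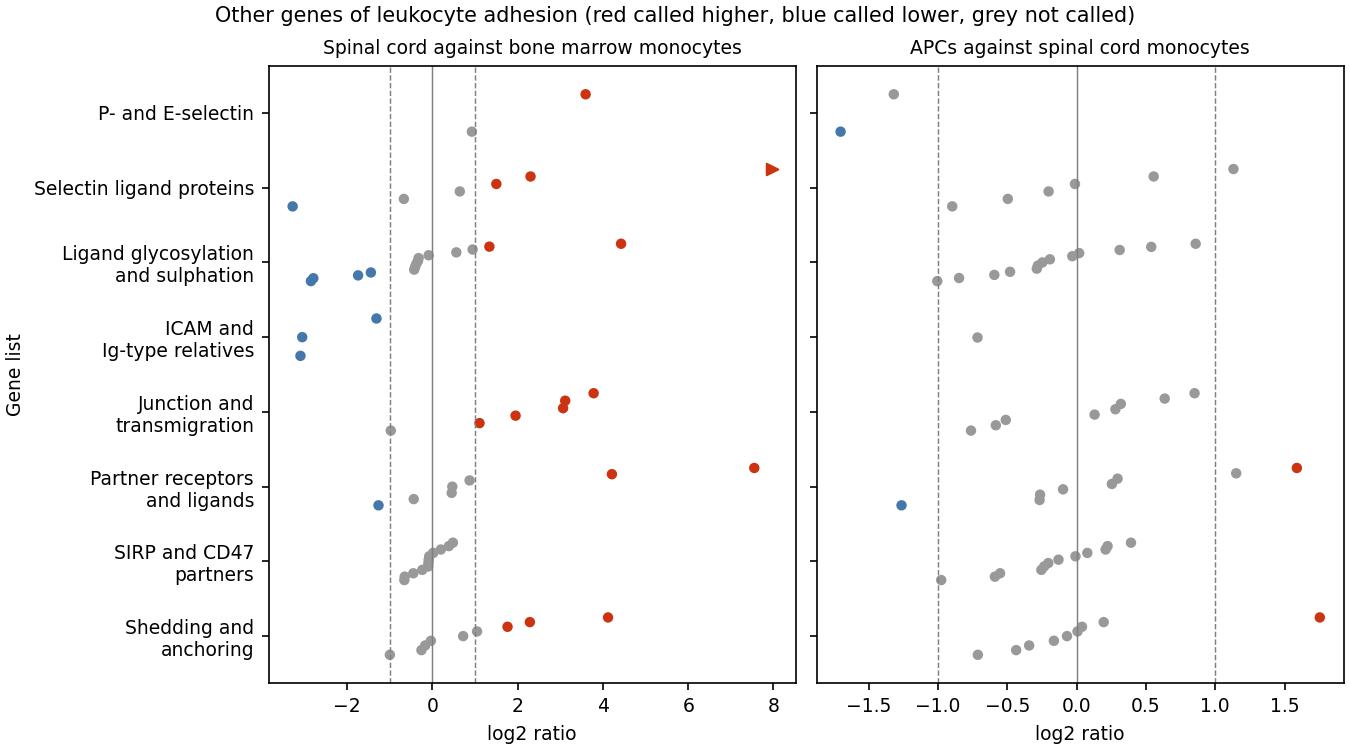
Log2 ratios of the listed adhesion genes over 3 TPM, by group, for SC-Mono against BM-Mono (left) and APCs against SC-Mono (right), 1 point per gene, red where called higher, blue where called lower and grey where not called, with dashed lines at 2-fold. The triangle marks Podxl at its lower bound, since it had 0 reads in BM-Mono. The junction group lies to the right and the ICAM relatives to the left in the first comparison, and most points lie within 2-fold in the second.

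Over the 73 other adhesion genes of these groups together, 59 were over 3 TPM in a monocyte library, and from BM-Mono to SC-Mono 27.1% of them (16) were called higher, beside 13.6% of all genes tested, and 15.3% (9) lower, beside 11.0%. The 16 include Itgax, whose product gated BM-Mono. Of 59 in the step from SC-Mono to APCs, 2 were called higher, Itgax and Actn1, and 2 lower, Selp and Thbs1, beside 1.94% and 1.66% of all genes. Against BM-Mono, 15 of 60 were called higher in APCs and 9 lower, beside 14.0% and 11.7%. Genes that passed the TPM threshold only through the library where they are high are among those counted.

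The genes whose pair of log2 ratios lay nearest to that of each adhesion gene were sought among 4902 or 4903 genes with at least 30 TPM in a library. The measure was the Euclidean distance between the pairs over these 3 libraries, so likeness rests on 2 numbers per gene. Around Icam1, 12 genes lay within a distance of 0.25, nearest Pla2g16 and Nampt, of which Nampt, a NAD-synthesis enzyme, had 50.4, 479 and 318 TPM. Around Vcam1 there were 5, nearest Clec4d, a C-type lectin receptor with 26.8, 486 and 486 TPM, and Lmna. Around F11r there were 7, nearest Itgb5 and Cd1d1, the latter a lipid-presenting molecule with 8.25, 34.8 and 38.3 TPM. Around Selplg there were 4, nearest Lactb and Hmgb1, the latter with 409, 186 and 348 TPM. The other patterns were common. Pecam1 had 93 genes within that distance (nearest Sra1 and Fndc3a), Sirpa 317 (Tmed4 and Park7), Cd47 365 (Csnk1a1 and Crybg1) and Alcam 515 (Rnf5 and Ybx3).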

How the data were processed

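RNA-Seq was done on 1 pooled library for each of 3 populations, BM-Mono, SC-Mono and APCs. Per the paper's methods and the submitters' processing notes, the authors quantified paired-end reads with Salmon 0.14.1 on GENCODE vM22 (mm10), pooling the transcripts of each gene. The deposited values are estimated counts of reads, not normalized, and TPM, which the authors normalized for library size and effective length, with lengths and effective lengths per gene in bases. Each monocyte library lists 54432 genes and the APC library 22242. A different set of transcripts was therefore behind the APC values, and its origin is not given in the sources used here.

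Comparisons used the 22238 genes listed in every library, with TPM brought to an equal sum over them and estimated counts rounded (32115707 reads in BM-Mono, 26116588 in SC-Mono and 28209327 in APCs). GENCODE M21 (GRCm38) gave symbols and coordinates, and it held 99.0% of these genes under an identical identifier and version.

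GFold was not used, and its criterion was recomputed as follows. A log2 ratio between libraries is the median of a posterior built from gamma distributions with 1 read added, after scaling by pairwise size factors (median of ratios), with a 98% interval between percentiles 1 and 99. The study's threshold of 2 on log2 TPM was read as 3 TPM, which is log2 of TPM plus 1. The calculation was tested on simulated data with known changes. The simulated reads held counting error only, so that test cannot show how the calls stand against a spread between mice or libraries. TPM has a 95% Wilson interval, and its floor is the TPM of 3 reads. Intervals and floors cover counting error only, since PCR copies are not independent molecules. With 1 library per population no p-value is given.

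The 9 genes and all gene lists were chosen with earlier results of these data known. Named beside them are genes of those lists and, for each of the 9, the 2 genes nearest by the pair of log2 ratios among genes with at least 30 TPM in a library, without Gm-numbered, Rik, ribosomal protein and mitochondrially encoded genes. Results on 3 further genes are not reported here. Promoter windows came from the RefSeq table for 5 of the 9 genes. The alternatives were TMM factors, total reads, reads divided by effective length, 4 TPM or no TPM threshold, an assumed coefficient of variation between libraries of 0.2 or 0.4, percentiles 0.1 and 99.9, 0.5 reads added, a plain 2-fold change, omission of Gm-numbered, mitochondrially encoded and ribosomal protein genes, ratios of TPM plus 1 or 0.1, and TPM as deposited. Size factors from genes over 3 TPM were added after the data were examined. TMM factors came from edgeR 4.0.16 in R 4.3.3, and everything else from Python 3.11.15 with scipy 1.17.1, numpy 2.4.6, pandas 2.3.3 and, for the figures, matplotlib 3.10.9.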

Additional observations from a re-analysis of the deposited data

How the results depend on the processing

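The count of the 9 genes called was 3 from BM-Mono to SC-Mono under 11 of 14 alternatives, 2 with a coefficient of variation of 0.4 (F11r lost) and 4 with TPM plus 1 or plus 0.1 (Selplg called lower). It was 0 from SC-Mono to APCs and 3 from BM-Mono to APCs under every alternative run. Of 336 log2 ratios over the alternatives, 323 kept direction and side of the threshold, 1 lost a call, 2 gained one and 10 changed sign. The changes of sign were small and the cause was not tested beyond the construction of each alternative. With reads divided by effective length, Cd47 was 0.16 from BM-Mono to SC-Mono and Alcam 0.24 from BM-Mono to APCs. With size factors from genes over 3 TPM, Sirpa was 0.17 in the first comparison, and Selplg was 0.16 and Alcam 0.023 in APCs against BM-Mono. With TMM factors, Sirpa was 0.0023 in the first. With TPM plus 1 and plus 0.1, APCs against BM-Mono gave -0.16 and -0.18 for Pecam1 and -0.025 for Sirpa under both.

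Scaling moved all genes. From BM-Mono to SC-Mono the median shifted by -0.16 with total reads and by 0.18 with size factors from genes over 3 TPM, and 1369 higher and 1104 lower calls became 1239 and 1394, or 1516 and 855. The shifts were -0.14 and 0.18 for APCs against BM-Mono. TPM plus 1 and plus 0.1 shifted the first comparison by -0.24 and -0.26, with 1315 and 1890, or 1391 and 2137, calls, and APCs against BM-Mono by -0.30 and -0.31. An assumed coefficient of variation of 0.2 or 0.4 left 905 higher and 460 lower, or 627 and 228, calls in the first comparison and 87 and 35, or 43 and 14, from SC-Mono to APCs, where reads divided by effective length gave 232 and 324 in place of 189 and 162. A plain 2-fold change gave 331 and 293 there, and no TPM threshold gave 2591 higher calls in the first comparison and 389 in the second. TPM as deposited moved 15 of 24 levels by more than their counting interval, by up to 15.1% lower. No paired analysis was possible because each population is 1 library, and leaving out a replicate was not possible for the same reason. The 41 reads of Vcam1 in BM-Mono limit its ratio.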
